A study of Mus musculus with 18 samples.

Results

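The 40 genes described here drive cells through DNA replication and division, 17 of them acting mainly in S phase and 23 mainly in mitosis. Each was read from the probe set whose platform symbol is exactly that gene, taking the one with the highest mean over all arrays where several existed. In this way 38 of the 40 were measured, 16 of the S phase genes and 22 of the mitotic genes, among 22180 genes in all. The cyclin genes Ccnb1 and Ccne2 had no probe set of their own symbol alone and were not analysed here.

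RNA came from the whole ileum of 18 B10.BR mice, 1 array per mouse, taken 21 days after an allogeneic transplant. All 18 had received 11 Gy of lethal whole-body irradiation at 8 to 12 weeks of age and then T cell depleted marrow cells from C57Bl/6 donors, so no group was unirradiated or untransplanted. In 9 of them the graft also carried purified T cells of the donor strain, and such mice develop graft-versus-host disease, an attack of the graft on the gut, skin and liver of the host. These are called T cell mice, and the other 9 marrow-only mice. From the day before transplant the mice were gavaged daily with 150 mg/kg of indole-3-carboxaldehyde (ICA), an indole that gut bacteria make from tryptophan, or with its vehicle of DMSO, PEG400 and citric acid. The 4 groups were vehicle marrow-only (n = 4), ICA marrow-only (n = 5), vehicle T cell (n = 4) and ICA T cell (n = 5).

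In the ileum nearly all division takes place in the crypts, where stem cells and their transit-amplifying daughters replace the villus epithelium every few days. Dividing lymphocytes, macrophages and stromal cells add to the same transcripts in whole tissue. Genes for DNA replication are switched on at the end of G1 when E2F factors are freed from the retinoblastoma proteins. Genes for mitosis follow in G2, when B-MYB and FOXM1 act with the MuvB complex at cell cycle homology regions (CHR) and NF-Y acts at CCAAT boxes. Because the ileum was read in bulk, fewer dividing cells and less RNA per dividing cell cannot be told apart in any value below.

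The letters that these factors bind were looked for in RefSeq promoters of build GRCm38.p6, which run from 250 bases before to 50 bases after the start and were listed for 32 of the 40 genes. Where a gene had several starts, the first listed was used. The letters were TTCCCGC and TTGGCGC for E2F, TTTGAA and TTTAAA for CHR, and CCAAT for NF-Y, on both strands. An E2F match lay in 7 of 14 S phase promoters (50.0%), in 3 of 18 mitotic promoters (16.7%) and in 6.93% of all 27025 promoters of that length. A CHR match lay in 5 S phase promoters (35.7%), 16 mitotic promoters (88.9%) and 27.8% of all promoters. CCAAT was present in 9 (64.3%), 16 (88.9%) and 37.9% respectively, and a CHR match together with CCAAT in 4 (28.6%), 15 (83.3%) and 10.9%. These are matches of letters, not measured binding sites.

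The 5 promoters below show this layout, with every letter that matched in capitals and the other bases in lower case. Mcm3 and Mcm5 (S phase) and Nusap1 and Birc5 (mitotic) had the smallest p in the graft comparison averaged over both gavages among members with a listed promoter. Ccnb2 was added after its letters were seen, because its layout is the common one among the mitotic members. All are written 5′ to 3′ on the gene's own strand, and the number of each position is its distance from the start.
Mcm3 lies on chr1:20820263-20820562, minus strand, and holds E2F letters from 19, 39 and 42 bases after the start, of which the last 2 overlap, and CCAAT letters at -117, -72 and -32.
Mcm3: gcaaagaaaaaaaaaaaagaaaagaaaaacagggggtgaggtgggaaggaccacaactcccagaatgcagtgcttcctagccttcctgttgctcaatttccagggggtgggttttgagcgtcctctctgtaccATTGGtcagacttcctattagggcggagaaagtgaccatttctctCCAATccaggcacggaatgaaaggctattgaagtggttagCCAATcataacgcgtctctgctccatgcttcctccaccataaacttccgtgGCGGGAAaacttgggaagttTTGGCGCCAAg
Mcm5 lies on chr8:75109259-75109558, plus strand, with E2F letters at -164 and -149, a TTTAAA at -221 and CCAAT letters at -77, -22 and 6.
Mcm5: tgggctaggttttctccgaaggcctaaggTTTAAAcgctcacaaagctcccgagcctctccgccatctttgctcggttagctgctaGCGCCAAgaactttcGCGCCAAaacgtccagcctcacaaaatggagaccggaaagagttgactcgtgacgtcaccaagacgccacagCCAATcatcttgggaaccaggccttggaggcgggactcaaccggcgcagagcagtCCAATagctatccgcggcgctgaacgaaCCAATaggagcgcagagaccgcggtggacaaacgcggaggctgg
Ccnb2 lies on chr9:70421505-70421804, minus strand, with TTTGAA at -167 and at 4 and CCAAT letters at -87, -54 and -21.
Ccnb2: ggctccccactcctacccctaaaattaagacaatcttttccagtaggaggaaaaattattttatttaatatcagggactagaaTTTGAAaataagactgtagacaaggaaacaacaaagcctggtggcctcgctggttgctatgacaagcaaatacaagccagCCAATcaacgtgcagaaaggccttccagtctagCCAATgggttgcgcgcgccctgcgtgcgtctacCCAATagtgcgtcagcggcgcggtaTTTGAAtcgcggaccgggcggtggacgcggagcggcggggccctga
Birc5 lies on chr11:117848987-117849286, plus strand, and holds a single TTTAAA at -220.
Birc5: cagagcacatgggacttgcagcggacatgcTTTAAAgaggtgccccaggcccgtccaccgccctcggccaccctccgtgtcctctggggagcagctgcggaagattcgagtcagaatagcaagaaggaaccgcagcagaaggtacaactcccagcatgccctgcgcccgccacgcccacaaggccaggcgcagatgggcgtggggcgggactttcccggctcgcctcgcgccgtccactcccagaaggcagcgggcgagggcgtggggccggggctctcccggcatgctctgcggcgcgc
Nusap1 lies on chr2:119618048-119618347, plus strand, and holds none of the letters searched.
Nusap1: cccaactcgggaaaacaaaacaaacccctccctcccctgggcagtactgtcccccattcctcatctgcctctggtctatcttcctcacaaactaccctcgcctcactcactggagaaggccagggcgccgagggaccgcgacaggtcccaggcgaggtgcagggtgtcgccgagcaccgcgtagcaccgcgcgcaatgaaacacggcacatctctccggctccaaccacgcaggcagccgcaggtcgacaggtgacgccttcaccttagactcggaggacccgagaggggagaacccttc
Thus Birc5 and Nusap1, the only members to pass a test below, differ from most mitotic members in these windows, which says nothing about which factors bind them.

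The arrays resembled one another closely, with correlations of 0.978 to 0.993 between any 2 and array medians of 6.47 to 6.51 on the log2 scale. The tissue was checked by its markers, and the mean over 12 epithelial marker genes lay between 11.10 and 11.26 in every mouse. The cell make-up differed between grafts, however. Over both gavages 6 of 9 measured T cell markers, 7 of 7 macrophage markers and 7 of 8 smooth muscle markers rose in T cell mice, while 6 of 9 B cell markers fell (limma, adjusted p under 0.05). In the same test 1 of the 12 epithelial markers (Elf3) fell and 1 of 10 differentiated enterocyte markers rose. Over all genes 7.21% were called. The T cell marker mean ran from 6.63 to 7.14 in vehicle marrow-only, 6.75 to 7.74 in ICA marrow-only, 7.52 to 8.38 in vehicle T cell and 7.47 to 8.21 in ICA T cell mice. Of 10 crypt stem cell markers 2 fell and none rose, and their mean ran from 9.02 to 9.09, 9.00 to 9.13, 8.88 to 8.98 and 8.78 to 9.15 in the same order of groups. The part of these cell types in the results below was not tested.

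All tests below are limma tests fitted over the 22180 genes and all 18 mice, with p-values adjusted by the Benjamini-Hochberg method over all genes and 0.05 as the threshold. Differences are log2 differences of group means ± SE.

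The first comparison asked what donor T cells did to the division genes without ICA. Under vehicle the S phase members hardly differed between T cell and marrow-only mice, and nearly all mitotic members were slightly lower, but 0 of 38 members passed the test. Over all genes 327 passed (1.47%). None of the 38 had an unadjusted p under 0.05 in limma either, which shares its variance over all 4 groups. Of 22180 genes, 1682 were higher and 1203 lower at that unadjusted p. The median SD of a mitotic member was 0.10 and 0.09 in the vehicle groups against 0.27 and 0.24 in the ICA groups. An ordinary 2-sample test per gene gave 0 calls after adjustment. Before adjustment Nusap1, Bub1, Kif23 and Cdc20 lay below 0.05 in that test, all lower in T cell mice. The median difference of the 22 mitotic members was -0.10, with 21 of 22 below 0, against a median of 0.01 over all genes. For the 16 S phase members it was 0.02 with 10 above 0, and this small difference changed sign to -0.01 after quantile normalization and to -0.02 after centring on array medians, each with 5 above 0. The members' separate 95% intervals together ran from -0.61 to 0.36, that is from 1.53-fold lower to 1.29-fold higher in T cell mice. They are not joint intervals and so set no outer limit. By non-overlap of mice, 0 members were higher in every vehicle T cell mouse than in every vehicle marrow-only mouse, against 6.33% of all genes. Only Nusap1 was lower in every one, 1 of 38 against 4.21% of all genes.

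Under ICA the same graft comparison gave 1 call. Birc5, the survivin of the chromosomal passenger complex, fell by 0.54 ± 0.14, or 1.45-fold (adjusted p = 0.0384 in limma, n = 5 and 5). Over all genes 693 passed (3.12%), so 1 of 38 members is close to the share of all genes. Another 4 members had an unadjusted p under 0.05 in limma, all lower in T cell mice. With Birc5 these were 5 of 38 lower and 0 higher, against 2038 lower and 1647 higher of 22180 genes. The median difference was -0.11 for the S phase members, 14 of 16 below 0, and -0.18 for the mitotic members, 22 of 22 below 0, against -0.01 over all genes. No member was higher or lower in all ICA T cell mice than in all ICA marrow-only mice, against 1.16% of all genes higher and 2.17% lower. Both medians shrank most without either of 2 mice that are described below. Without ICA T cell mouse 1 they were -0.03 and -0.08, with 9 of 16 and 17 of 22 below 0, and without ICA marrow-only mouse 3 they were -0.06 and -0.09. They were -0.14 and -0.23 without ICA marrow-only mouse 1.

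Averaged over both gavages, the graft comparison gave 1 call among the members and 1599 over all genes (7.21%). Nusap1, which bundles microtubules around the chromosomes of the spindle, fell by 0.23 ± 0.06, or 1.17-fold (adjusted p = 0.0354 in limma). Birc5 followed at -0.33 ± 0.10 (adjusted p = 0.0624) and Bub1 at -0.25 ± 0.10 (adjusted p = 0.165), which both missed the threshold. All 22 mitotic members lay below 0, with a median of -0.13, and 14 of 16 S phase members did, with a median of -0.05. Both calls rest on few mice. Birc5 lost its call without ICA T cell mouse 1, 2, 4 or 5 or without ICA marrow-only mouse 2, 3 or 5, with differences of -0.57 to -0.42, and Nusap1 without any 1 of 9 mice, with differences of -0.23 to -0.21.

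ICA against vehicle was then compared within each graft. In T cell mice 0 of 38 members passed, against 3 calls over all genes (0.0135%). None had an unadjusted p under 0.05 in limma or in the ordinary 2-sample test. In limma 679 of 22180 genes were higher and 850 lower at that unadjusted p. The S phase members had a median difference of 0.04 with 12 of 16 above 0, the mitotic members 0.08 with 18 of 22 above 0, and all genes -0.01. The 95% intervals of the 38 together ran from -0.32 to 0.51. No member was higher (1.11% of all genes) or lower (1.78%) in all ICA mice than in all vehicle mice. Single mice moved these medians both ways. Without ICA T cell mouse 1 all 38 members lay above 0, with medians of 0.14 and 0.19, and still 0 passed, with 5 below an unadjusted p of 0.05. The medians were 0.08 and 0.12 without vehicle T cell mouse 3, -0.01 and 0.04 without vehicle T cell mouse 1, and -0.01 and 0.04 without ICA T cell mouse 4, with 6 and 7 of 16 S phase members above 0 in the last 2 cases.

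In marrow-only mice ICA also gave 0 calls among the 38 members, and 1 over all genes (0.00451%). The ordinary 2-sample test gave 0 as well. There, 15 of 16 S phase and 22 of 22 mitotic members were higher with ICA, with medians of 0.15 and 0.13 against 0.01 over all genes. The 4 with an unadjusted p under 0.05 in limma were Birc5 (0.41 ± 0.15), Rrm2 (0.36 ± 0.16), Aurkb (0.27 ± 0.12) and Gins2 (0.24 ± 0.12), with adjusted p of 0.617 to 0.661. All 4 were higher, and at that unadjusted p 940 of 22180 genes were higher and 729 lower. The 95% intervals of the 38 ran from -0.26 to 0.72. Pcna was higher in every ICA mouse than in every vehicle mouse, 1 of 38 against 1.35% of all genes, and 0 members were lower in every one, against 0.825%. Without ICA marrow-only mouse 3 the medians were 0.09 and 0.05, and without ICA marrow-only mouse 1 they were 0.19 and 0.21. Averaged over both grafts, all 38 members lay above 0 with ICA, with medians of 0.10 and 0.11. Of them 0 passed, against 3 calls over all genes (0.0135%). At an unadjusted p under 0.05 in limma, 3 of 38 (Aurkb, Cdk1 and Cdt1) were higher and 0 lower. The same held for 794 of 22180 genes higher and 921 lower. The interaction, which asks whether ICA acted differently in the 2 grafts, gave 0 calls among the members and over all genes (0%), and no member had an unadjusted p under 0.05. Over all genes 608 lay above 0 and 874 below 0 at that unadjusted p in limma. The comparisons that use the same group share its mice, so their members' differences are not independent of one another.

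**Figure D1:**
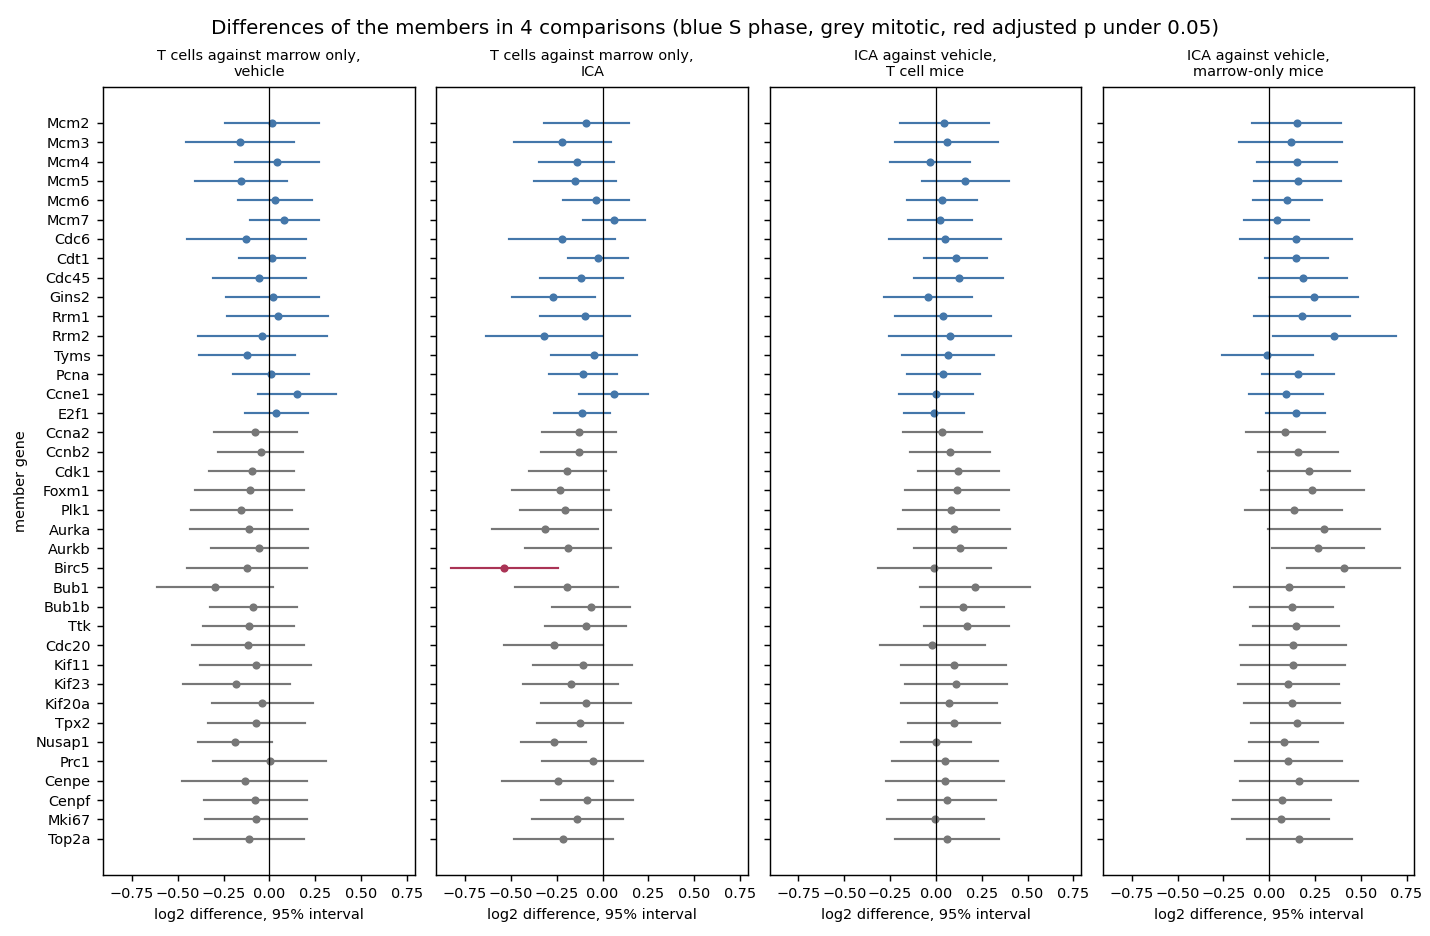
Log2 difference of group means (x axis) with its 95% interval for each of the 38 measured members (y axis) in 4 comparisons, S phase members in blue, mitotic members in grey and an adjusted p under 0.05 in red. In the left panel the mitotic members lie just below 0 and the S phase members on both sides of it, and in the right panel nearly all lie above 0, while Birc5 under ICA is the only one past the threshold.

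The S phase members fall into 3 roles, of which the replicative helicase and the factors that load it make up 10 genes. Under vehicle 6 of these 10 were higher and 4 lower in T cell mice, under ICA 9 were lower, and none passed a test. Mcm2, a subunit of the hexameric MCM helicase, read 8.72, 8.67, 8.71 and 8.67 in the vehicle marrow-only mice, 8.63, 8.97, 9.03, 8.59 and 8.97 in the ICA marrow-only mice, 8.55, 8.76, 8.81 and 8.70 in the vehicle T cell mice and 8.29, 8.89, 8.83, 8.95 and 8.81 in the ICA T cell mice. One ICA T cell mouse stood well below the other 17, and the ranges of all 4 groups overlapped. Mcm3, another subunit, read 8.31, 8.08, 8.07 and 8.02 in the vehicle marrow-only mice, 8.02, 8.32, 8.49, 8.10 and 8.26 in the ICA marrow-only mice, 7.66, 8.19, 8.04 and 7.96 in the vehicle T cell mice and 7.50, 8.07, 8.19, 8.15 and 8.18 in the ICA T cell mice. Its lowest values were in mouse 1 of each T cell group, the other mice overlapped, and its difference between grafts under vehicle was -0.16 ± 0.14 (adjusted p = 0.712). Mcm5 read 9.63, 9.56, 9.75 and 9.76 in the vehicle marrow-only mice, 9.69, 9.98, 9.90, 9.60 and 9.99 in the ICA marrow-only mice, 9.28, 9.66, 9.54 and 9.60 in the vehicle T cell mice and 9.30, 9.88, 9.78, 9.58 and 9.87 in the ICA T cell mice. Vehicle T cell mouse 1 and ICA T cell mouse 1 were the lowest of the 18, and 3 of 5 ICA mice of each graft lay above all vehicle mice of that graft (difference with ICA in T cell mice 0.16 ± 0.11, adjusted p = 0.835). Mcm4, Mcm6 and Mcm7 had differences between -0.14 and 0.08 in both graft comparisons.

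Loading of the helicase needs Cdc6 and Cdt1, and its activation Cdc45 and the GINS complex. Cdt1, whose protein is destroyed in S phase so that origins fire once, read 8.97, 8.70, 8.93 and 8.91 in the vehicle marrow-only mice, 9.05, 9.20, 9.08, 8.91 and 8.90 in the ICA marrow-only mice, 8.83, 8.97, 8.98 and 8.79 in the vehicle T cell mice and 8.88, 8.87, 9.10, 9.06 and 9.09 in the ICA T cell mice. The groups overlapped widely, and Cdt1 followed the other members least of all, with a correlation of 0.31 with their mean over the 18 mice after each group was centred on its own mean. Cdc45 read 7.35, 7.45, 7.22 and 7.51 in the vehicle marrow-only mice, 7.47, 7.47, 7.94, 7.41 and 7.55 in the ICA marrow-only mice, 7.22, 7.18, 7.55 and 7.36 in the vehicle T cell mice and 7.18, 7.33, 7.51, 7.60 and 7.63 in the ICA T cell mice. ICA marrow-only mouse 3 stood above all others. Cdc6 differed by -0.13 ± 0.16 between grafts under vehicle and by -0.22 ± 0.14 under ICA. Gins2, a GINS subunit, differed by 0.02 ± 0.12 under vehicle and by -0.27 ± 0.11 under ICA (adjusted p = 0.207), while the test of the change in its graft difference gave -0.29 ± 0.16 (adjusted p = 0.788).

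Nucleotide supply and the sliding clamp make up 4 members, Rrm1, Rrm2, Tyms and Pcna. Rrm2, the regulated subunit of ribonucleotide reductase that makes deoxynucleotides, read 8.03, 8.25, 8.23 and 8.18 in the vehicle marrow-only mice, 8.07, 8.73, 9.02, 8.23 and 8.60 in the ICA marrow-only mice, 7.85, 8.11, 8.39 and 8.18 in the vehicle T cell mice and 7.84, 8.08, 8.25, 8.44 and 8.44 in the ICA T cell mice. The highest values were in ICA marrow-only mice 2, 3 and 5, while mice 1 and 4 of that group lay within the range of the vehicle mice. Pcna, the clamp that holds DNA polymerases on the template, read 8.95, 8.91, 8.96 and 8.95 in the vehicle marrow-only mice, 8.97, 9.06, 9.15, 9.15 and 9.17 in the ICA marrow-only mice, 8.74, 9.00, 8.95 and 9.12 in the vehicle T cell mice and 8.64, 9.04, 9.16, 9.15 and 8.98 in the ICA T cell mice. The 4 vehicle marrow-only mice lay close together and below all 5 ICA marrow-only mice, a difference of 0.16 ± 0.09 that did not pass the test (adjusted p = 0.712). Rrm1 differed by 0.05 ± 0.13 and Tyms, thymidylate synthase, by -0.12 ± 0.13 between grafts under vehicle.

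Entry into S phase was represented by Ccne1 and E2f1. Ccne1, the cyclin E that activates CDK2 at the end of G1, read 7.86, 7.80, 8.03 and 7.83 in the vehicle marrow-only mice, 7.79, 8.11, 8.18, 7.86 and 7.90 in the ICA marrow-only mice, 7.96, 8.11, 8.10 and 7.94 in the vehicle T cell mice and 7.75, 7.99, 8.10, 8.16 and 8.14 in the ICA T cell mice. It had the largest difference above 0 of all members between grafts under vehicle, 0.15 ± 0.10 (adjusted p = 0.596), with overlapping groups. E2f1, the activator of replication genes, read 7.43, 7.27, 7.49 and 7.38 in the vehicle marrow-only mice, 7.42, 7.62, 7.50, 7.59 and 7.54 in the ICA marrow-only mice, 7.39, 7.48, 7.45 and 7.39 in the vehicle T cell mice and 7.22, 7.45, 7.46, 7.61 and 7.36 in the ICA T cell mice. All groups overlapped, and its difference between grafts was 0.04 ± 0.08 under vehicle and -0.11 ± 0.07 under ICA.

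**Figure D2:**
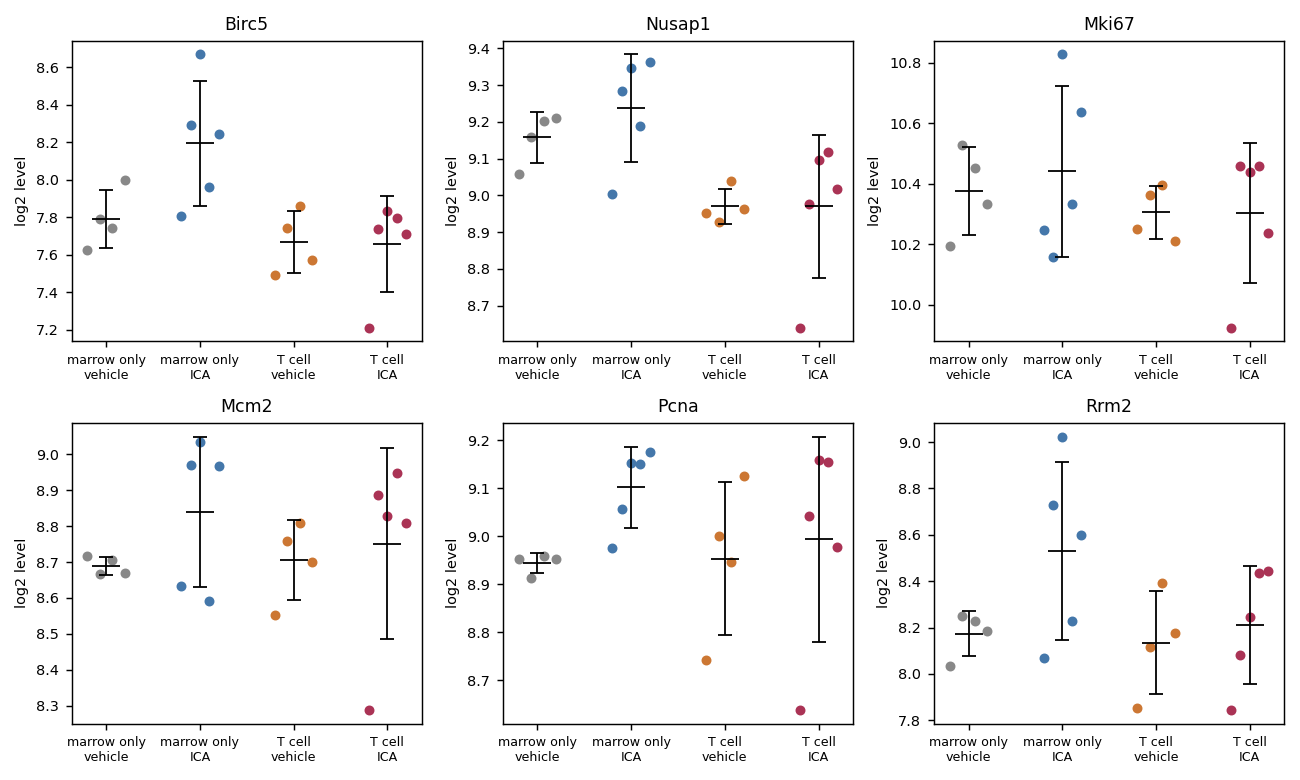
Log2 level (y axis) of Birc5, Nusap1, Mki67, Mcm2, Pcna and Rrm2 in each mouse of the 4 groups (x axis), with the group mean and SD as bars. Nusap1 is lower in all 4 vehicle T cell mice than in the 4 vehicle marrow-only mice, and ICA T cell mouse 1 lies lowest in every panel.

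Among the mitotic members, the cyclins, their kinase and the transcription factor Foxm1 come first. All 4 measured (Ccna2, Ccnb2, Cdk1 and Foxm1) were lower in T cell mice in both graft comparisons, with medians of -0.09 under vehicle and -0.16 under ICA, and none passed. Cdk1, the kinase that cyclin B activates to start mitosis, read 9.64, 9.53, 9.38 and 9.45 in the vehicle marrow-only mice, 9.44, 9.89, 9.91, 9.55 and 9.81 in the ICA marrow-only mice, 9.46, 9.25, 9.47 and 9.44 in the vehicle T cell mice and 9.28, 9.38, 9.63, 9.75 and 9.58 in the ICA T cell mice. Vehicle T cell mouse 2 was the lowest and the ICA marrow-only mice 2, 3 and 5 the highest, with overlap in every comparison. Foxm1, which switches on G2 and mitotic genes, differed by -0.11 ± 0.14 under vehicle and by -0.23 ± 0.13 under ICA between grafts. Ccna2 and Ccnb2, the cyclins A2 and B2, differed by -0.08 ± 0.11 and -0.05 ± 0.11 under vehicle.

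The mitotic kinases and checkpoint genes were the role with the lowest medians in the graft comparisons, -0.12 under vehicle and -0.20 under ICA, with all 8 members below 0 in both. Birc5 read 7.63, 7.79, 7.74 and 8.00 in the vehicle marrow-only mice, 7.80, 8.29, 8.67, 7.96 and 8.24 in the ICA marrow-only mice, 7.49, 7.74, 7.86 and 7.57 in the vehicle T cell mice and 7.21, 7.74, 7.83, 7.79 and 7.71 in the ICA T cell mice. Its highest values were in ICA marrow-only mice 2, 3 and 5, and its lowest was in ICA T cell mouse 1, while mice 2 to 5 of the ICA T cell group, at 7.71 to 7.83, lay around ICA marrow-only mouse 1 and inside the ranges of both vehicle groups. Birc5 thus differed between grafts under ICA (-0.54 ± 0.14) but by -0.12 ± 0.16 under vehicle (adjusted p = 0.820), and the difference of these 2, -0.41 ± 0.21, did not pass its own test (adjusted p = 0.763). Aurkb, the kinase of the same complex, differed by -0.19 ± 0.11 under ICA and -0.05 ± 0.13 under vehicle.

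Bub1, a kinase of the spindle checkpoint at the kinetochore, read 8.14, 8.40, 8.43 and 8.37 in the vehicle marrow-only mice, 8.31, 8.06, 8.86, 8.22 and 8.77 in the ICA marrow-only mice, 7.86, 8.00, 8.15 and 8.13 in the vehicle T cell mice and 7.86, 8.32, 8.43, 8.38 and 8.25 in the ICA T cell mice. The vehicle T cell mice lay low, yet the highest of them was above the lowest vehicle marrow-only mouse, so that -0.30 ± 0.15 (adjusted p = 0.420) was the lowest difference of any member under vehicle without passing the test. Its level with ICA in T cell mice was 0.21 ± 0.14 higher (adjusted p = 0.822). Bub1b, the checkpoint protein BUBR1, read 8.18, 8.18, 8.29 and 8.36 in the vehicle marrow-only mice, 8.18, 8.27, 8.71, 8.26 and 8.46 in the ICA marrow-only mice, 8.12, 8.23, 8.23 and 8.08 in the vehicle T cell mice and 7.95, 8.34, 8.34, 8.47 and 8.46 in the ICA T cell mice. Ttk, the MPS1 kinase that recruits the checkpoint, read 7.62, 7.84, 7.74 and 7.71 in the vehicle marrow-only mice, 7.56, 7.84, 8.07, 7.77 and 8.12 in the ICA marrow-only mice, 7.63, 7.62, 7.69 and 7.52 in the vehicle T cell mice and 7.44, 7.78, 8.02, 7.82 and 7.86 in the ICA T cell mice. Both were higher in ICA T cell mice 2 to 5 than in every vehicle T cell mouse and low in mouse 1, and with mouse 1 included the differences of 0.15 ± 0.11 and 0.17 ± 0.11 did not pass (adjusted p = 0.848 and 0.819). Plk1, the polo kinase of centrosome maturation and mitotic exit, read 9.78, 9.92, 9.83 and 9.93 in the vehicle marrow-only mice, 9.58, 10.22, 10.34, 9.77 and 10.10 in the ICA marrow-only mice, 9.50, 9.81, 9.83 and 9.71 in the vehicle T cell mice and 9.49, 9.88, 9.83, 9.85 and 9.93 in the ICA T cell mice. Its groups overlapped in all 4 comparisons. Aurka, the centrosome kinase, differed by -0.11 ± 0.15 under vehicle and -0.31 ± 0.14 under ICA (adjusted p = 0.256), and Cdc20, the activator of the anaphase-promoting complex, by -0.12 ± 0.15 and -0.27 ± 0.13.

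The spindle, motor and kinetochore genes include the second call. Nusap1 read 9.06, 9.16, 9.20 and 9.21 in the vehicle marrow-only mice, 9.00, 9.28, 9.35, 9.19 and 9.36 in the ICA marrow-only mice, 8.95, 8.93, 9.04 and 8.96 in the vehicle T cell mice and 8.64, 8.98, 9.10, 9.12 and 9.02 in the ICA T cell mice. Every vehicle T cell mouse was below every vehicle marrow-only mouse, though the difference of -0.19 ± 0.10 under vehicle missed the threshold (adjusted p = 0.424), as did -0.27 ± 0.09 under ICA (adjusted p = 0.101), and only their mean passed. In T cell mice the 95% interval of its difference with ICA ran from -0.19 to 0.19. Kif23, a motor of the central spindle, read 8.76, 8.97, 8.93 and 8.98 in the vehicle marrow-only mice, 8.82, 8.82, 9.38, 8.97 and 9.11 in the ICA marrow-only mice, 8.74, 8.63, 8.77 and 8.78 in the vehicle T cell mice and 8.45, 8.76, 9.10, 9.23 and 8.67 in the ICA T cell mice. Its values overlapped between all groups, with -0.18 ± 0.14 under vehicle (adjusted p = 0.656). Kif11, Kif20a, Tpx2, Prc1, Cenpe and Cenpf, which are spindle motors, a spindle assembly factor, a microtubule crosslinker and kinetochore proteins, had differences of -0.13 to 0.00 under vehicle and of -0.25 to -0.05 under ICA.

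Mki67 and Top2a act on chromosome structure and are the common proliferation markers. Mki67, the Ki-67 protein that coats mitotic chromosomes, read 10.20, 10.53, 10.45 and 10.33 in the vehicle marrow-only mice, 10.25, 10.16, 10.83, 10.33 and 10.64 in the ICA marrow-only mice, 10.25, 10.36, 10.39 and 10.21 in the vehicle T cell mice and 9.92, 10.46, 10.44, 10.46 and 10.24 in the ICA T cell mice. Between grafts it differed by -0.07 ± 0.13 under vehicle (adjusted p = 0.885) and by -0.14 ± 0.12 under ICA (adjusted p = 0.633), with overlapping ranges. Top2a, the topoisomerase that untangles sister chromatids, read 9.46, 9.77, 9.64 and 9.71 in the vehicle marrow-only mice, 9.55, 9.67, 10.17, 9.62 and 10.03 in the ICA marrow-only mice, 9.40, 9.50, 9.71 and 9.52 in the vehicle T cell mice and 9.11, 9.71, 9.75, 9.81 and 9.60 in the ICA T cell mice. It differed by -0.11 ± 0.14 and -0.21 ± 0.13 in the same comparisons (adjusted p = 0.826 and 0.441). For both genes ICA marrow-only mice 3 and 5 were the highest and ICA T cell mouse 1 the lowest of the 18.

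**Figure D3:**
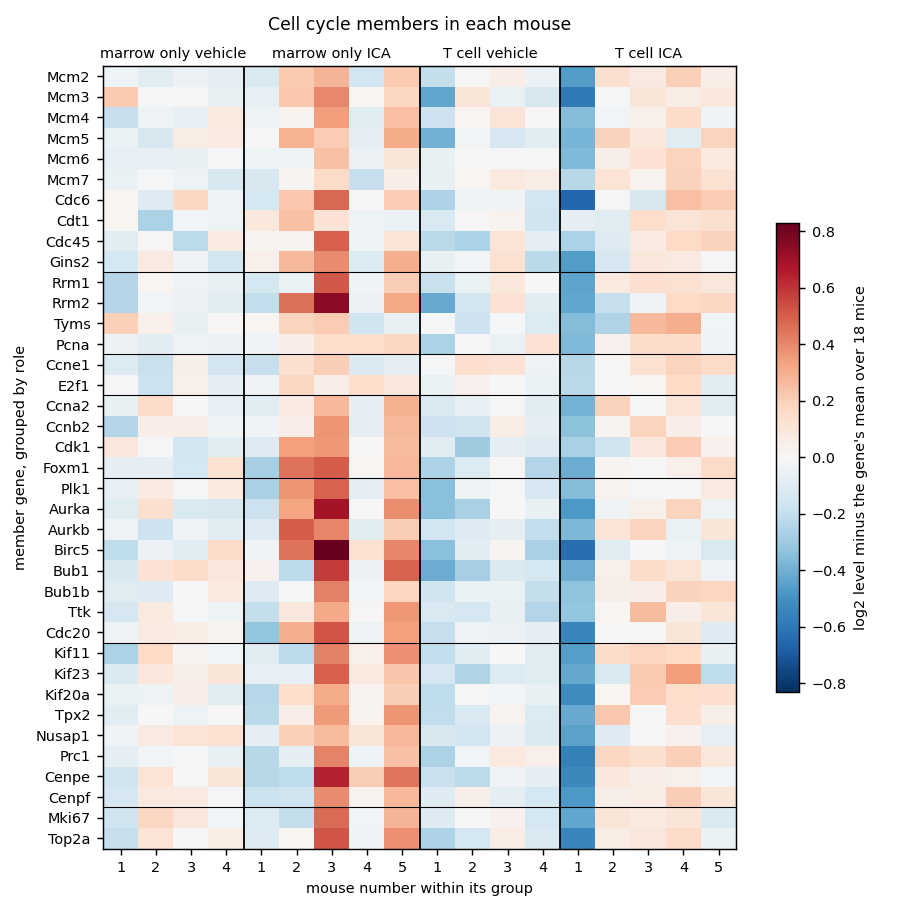
Log2 level of each measured member (rows, by role) in each of the 18 mice (columns, by group) minus that gene's mean over all mice, as colour. Most of the strong colour lies in 2 columns, ICA T cell mouse 1 (low, blue) and ICA marrow-only mouse 3 (high, red). The columns of both vehicle groups are paler, except that vehicle T cell mouse 1 is low in several members (member mean 8.57).

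Mouse by mouse, the members moved together, and 2 mice stood apart. They were picked as those whose mean over the members lay farthest from their group's mean, ICA T cell mouse 1 (-0.38) and ICA marrow-only mouse 3 (0.27). ICA T cell mouse 1 had the lowest level of all 18 mice in 35 of 38 members, 14 S phase and 21 mitotic, the exceptions being Mcm5, Cdt1 and Cdk1. ICA marrow-only mouse 3 had the highest level in 27 members, 10 S phase and 17 mitotic, and mouse 5 of that group in another 6. The median correlations of their arrays with the other arrays were 0.986 and 0.984, against 0.984 to 0.988 over all 18. ICA T cell mouse 1 is also 1 of 3 arrays, with ICA marrow-only mouse 1 and vehicle marrow-only mouse 3, that earlier results of these data set apart and that were left out together as an alternative. The spread of the members was wider in ICA mice: the median SD of a mitotic member was 0.10 in vehicle marrow-only, 0.27 in ICA marrow-only, 0.09 in vehicle T cell and 0.24 in ICA T cell mice. For the S phase members these SDs were 0.10, 0.18, 0.11 and 0.23. Without the 2 mice the SD of the mitotic mean was 0.05 in ICA T cell mice, below the 0.08 of vehicle T cell mice, but still 0.19 in ICA marrow-only mice against 0.07 in vehicle marrow-only mice. These differences in spread were not tested, and leaving out mice picked on these same values narrows the spread by construction.

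The mean over the 16 S phase members was 8.49 ± 0.02 in vehicle marrow-only mice (SD, n = 4), 8.64 ± 0.16 in ICA marrow-only mice (n = 5), 8.48 ± 0.09 in vehicle T cell mice (n = 4) and 8.53 ± 0.21 in ICA T cell mice (n = 5). Over the 22 mitotic members it was 8.91 ± 0.07, 9.07 ± 0.24, 8.81 ± 0.08 and 8.89 ± 0.23 in the same order. In each comparison with an ICA group the means differed by less than the SD of that ICA group. Under vehicle the mitotic means differed by more than either SD, with the mice overlapping at 8.81 to 8.97 and 8.72 to 8.90. Without the 2 mice the ICA means were 8.59 ± 0.12 (marrow-only, n = 4) and 8.62 ± 0.07 (T cell, n = 4) for the S phase list. For the mitotic list they were 8.99 ± 0.19 and 8.99 ± 0.05. The 4 ICA T cell mice then lay at 8.93 to 9.04 on the mitotic list against 8.72 to 8.90 for the 4 vehicle T cell mice. Because the mice left out were picked on these same values, that gap is not a result about ICA.

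The difference between the 2 lists within a mouse shows whether S phase and mitotic transcripts shifted alike. Its size depends on the probe sets, and only its change between mice can be read. S phase minus mitotic was -0.42 ± 0.07 in vehicle marrow-only mice (-0.50 to -0.33) and -0.32 ± 0.03 in vehicle T cell mice (-0.36 to -0.29). Of the 4 vehicle marrow-only mice, 3 lay below all vehicle T cell mice and the other within their range. With ICA it was -0.43 ± 0.11 in marrow-only mice (-0.55 to -0.30) and -0.36 ± 0.05 in T cell mice (-0.43 to -0.30), and the ranges overlapped. ICA T cell mouse 1, at -0.31, lay inside the range of the other T cell mice on this difference although low in both lists, whereas ICA marrow-only mice 3 and 5, at -0.53 and -0.55, were the lowest of the 18.

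**Figure D4:**
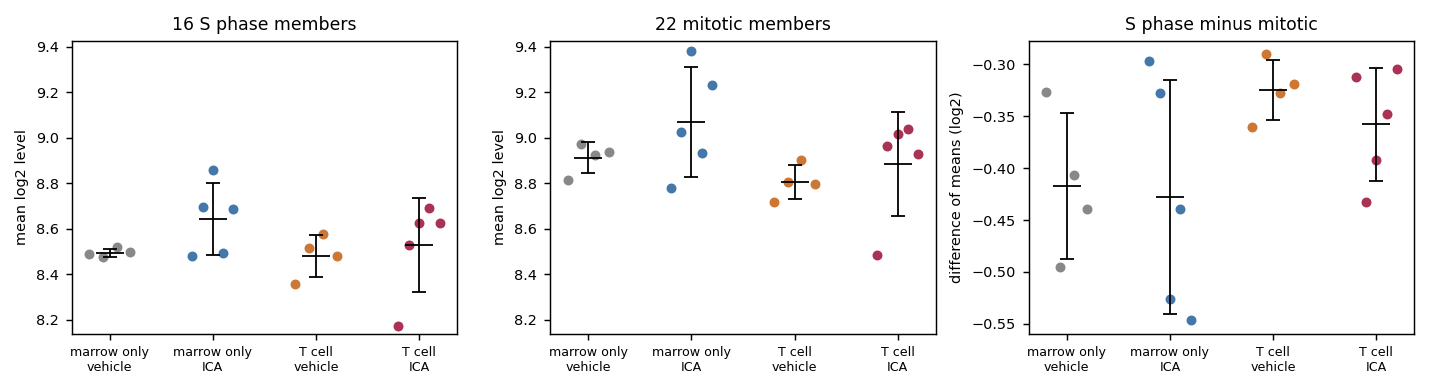
Mean log2 level of the 16 S phase members and of the 22 mitotic members in each mouse, and the difference of the 2 means, by group (x axis), with group mean and SD as bars. ICA T cell mouse 1 lies lowest in both means, the ICA mice of both grafts spread more than the vehicle mice, and the difference is narrowest in range in the vehicle T cell mice.

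In the ICA marrow-only group the order of the 5 mice on the mitotic list was the reverse of their order on 10 differentiated enterocyte markers. The mitotic mean was 9.38, 9.23, 9.02, 8.93 and 8.78 in mice 3, 5, 2, 4 and 1, and the enterocyte marker mean 10.34, 10.69, 10.75, 11.11 and 11.70. Of the 10 markers Lct spread most in that group, with an SD of 1.76 against 0.73 or less for the others. The order without Lct was not tested. ICA T cell mouse 1 had an enterocyte marker mean of 11.07, near the 11.14 to 11.30 of its group, and a T cell marker mean of 7.47 against 7.98 to 8.21 in the other 4. Its macrophage marker mean was the lowest of its group, 8.76 against 9.11 to 9.42, and its B cell marker mean the highest, 6.02 against 5.60 to 5.76. The enterocyte markers ran from 10.94 to 11.27 in vehicle marrow-only and from 11.26 to 11.35 in vehicle T cell mice. In neither vehicle group nor in the ICA T cell group was the order of mice on the mitotic list the reverse of that on these markers. In the ICA T cell group mouse 1 was the lowest on both. The enterocyte list is 1 of several marker lists that were read. Whether the make-up of the tissue piece bears on the members' levels was not tested.

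After each group was centred on its own mean, pairs of mitotic members had a median correlation of 0.80 over the 18 mice, pairs of S phase members 0.68 and mixed pairs 0.70. Without the 2 mice these were 0.66, 0.50 and 0.51. All points share their arrays, and so these values are descriptive. Prc1, Top2a and Rrm1 followed the mean of the other members most closely (0.95 each), and Cdt1 (0.31), E2f1 (0.52) and Tyms (0.57) least. Outside the cell cycle lists, the 6 genes most like the mean of the members were Cep55 (0.96), Spdl1 (0.95), Nup93 (0.95), Pno1 (0.95), Cops8 (0.94) and Nod1 (0.93). Cep55 acts in abscission and Spdl1 at the kinetochore. Without the 2 mice these correlations were 0.86 to 0.91.

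The wider cell cycle was read from 4 further lists. Of 36 measured replication genes outside the members (polymerases, clamp loader, origin recognition and others) 0 passed in any comparison in limma. In the graft comparison under vehicle 24 of 36 were higher, with a median of 0.09 and none below an unadjusted p of 0.05, and under ICA 28 were lower, with a median of -0.05 and 2 below it. Of 39 other mitotic genes (condensins, kinesins, kinetochore and cytokinesis genes) 0 passed, 26 and 33 were lower in the same comparisons with medians of -0.03 and -0.13, and 0 and 9 were below an unadjusted p of 0.05. Of 22180 genes, 1203 were lower and 1682 higher at that unadjusted p under vehicle, and 2038 lower and 1647 higher under ICA. With ICA in marrow-only mice 34 of 36 replication and 39 of 39 mitotic genes were higher, with medians of 0.14 and 0.17, and again 0 passed, with 5 and 4 below an unadjusted p of 0.05. At that p 940 of 22180 genes were higher and 729 lower. In T cell mice 14 of 36 and 31 of 39 were higher with ICA, with medians of -0.03 and 0.07, and 0 passed, with 0 and 2 below an unadjusted p of 0.05. There 679 of 22180 genes were higher and 850 lower at that p.

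The calls lay among the regulators that act before replication. Of 12 genes that drive cells through G1, 5 fell and 1 rose in T cell mice averaged over both gavages, against 7.21% of all genes called. E2f2, an activating E2F, read 8.22, 7.92, 8.05 and 8.17 in the vehicle marrow-only mice, 7.96, 8.46, 8.21, 8.09 and 8.29 in the ICA marrow-only mice, 7.56, 7.73, 7.69 and 7.40 in the vehicle T cell mice and 7.91, 7.65, 7.89, 7.93 and 7.98 in the ICA T cell mice. Every vehicle T cell mouse was below every vehicle marrow-only mouse, a fall by 0.50 ± 0.11 or 1.41-fold (adjusted p = 0.0210). E2f2 is the only one of the 12 to pass under vehicle. Over both gavages it fell by 0.41 ± 0.07 (adjusted p = 0.00112) and E2f3, another activating E2F, by 0.29 ± 0.08 (adjusted p = 0.0224), while the member E2f1 differed by -0.04 ± 0.06 and did not pass.

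Cdc25a, the phosphatase that frees CDK2 from inhibition, read 9.71, 9.76, 9.63 and 9.64 in the vehicle marrow-only mice, 9.79, 9.68, 9.85, 9.76 and 9.76 in the ICA marrow-only mice, 9.59, 9.53, 9.41 and 9.69 in the vehicle T cell mice and 9.42, 9.30, 9.48, 9.55 and 9.50 in the ICA T cell mice. All 5 ICA T cell mice lay below all 5 ICA marrow-only mice, a fall by 0.32 ± 0.06 (adjusted p = 0.0086). Ccnd1, the cyclin D1 that activates CDK4 and CDK6, read 10.86, 10.75, 10.50 and 10.66 in the vehicle marrow-only mice, 10.49, 11.25, 11.29, 10.70 and 11.37 in the ICA marrow-only mice, 10.47, 10.43, 10.49 and 10.66 in the vehicle T cell mice and 9.93, 10.61, 10.63, 10.61 and 10.36 in the ICA T cell mice. Under ICA it fell by 0.59 ± 0.15 (adjusted p = 0.0393), with ICA marrow-only mice 2, 3 and 5 above all others and ICA T cell mouse 1 below all others. Myc, the growth factor responsive transcription factor, read 9.11, 9.15, 9.02 and 9.24 in the vehicle marrow-only mice, 9.26, 9.73, 9.46, 9.13 and 9.29 in the ICA marrow-only mice, 8.88, 9.06, 9.07 and 9.08 in the vehicle T cell mice and 9.12, 8.84, 8.88, 8.91 and 9.19 in the ICA T cell mice. It fell by 0.39 ± 0.10 under ICA (adjusted p = 0.0325), with 1 ICA T cell mouse inside the ICA marrow-only range.

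Mycn was the exception in direction, and its level was low, below the array medians of 6.47 to 6.51 in every mouse. It read 5.84, 5.80, 6.01 and 5.98 in the vehicle marrow-only mice, 5.86, 5.89, 5.54, 6.01 and 5.85 in the ICA marrow-only mice, 6.15, 5.99, 6.16 and 6.00 in the vehicle T cell mice and 6.12, 6.13, 6.38, 6.38 and 6.16 in the ICA T cell mice. All ICA T cell mice lay above all ICA marrow-only mice, and it rose by 0.41 ± 0.09 (adjusted p = 0.0154). Over both gavages Cdc25a fell by 0.22 ± 0.05, Ccnd1 by 0.39 ± 0.12 and Myc by 0.25 ± 0.07, and Mycn rose by 0.29 ± 0.07 (adjusted p = 0.00674, 0.0471, 0.0444 and 0.0123). Of these, Cdc25a and Mycn passed in all 28 other settings run, but Ccnd1 and Myc in only 12 of 28 each, with adjusted p up to 0.10 and 0.0985, so the count of 5 that fell includes 2 that most settings did not call. The calls of Ccnd1 and Myc under ICA were lost in 11 and 10 of 22 other settings, among them without ICA marrow-only mouse 2, 3 or 5, and that of E2f2 under vehicle in 4 of 20, without vehicle marrow-only mouse 1 or 4, without vehicle T cell mouse 4 and in the ordinary 2-sample test. None of the 12 passed in either ICA comparison, with 1 and 3 above 0 at an unadjusted p under 0.05 in T cell and marrow-only mice, and none in the interaction. At that unadjusted p 679 and 940 of 22180 genes lay above 0 in these 2 ICA comparisons. The other 6, Ccnd2, Ccnd3, Cdk2, Cdk4, Cdk6 and Skp2, passed in no comparison.

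**Figure D5:**
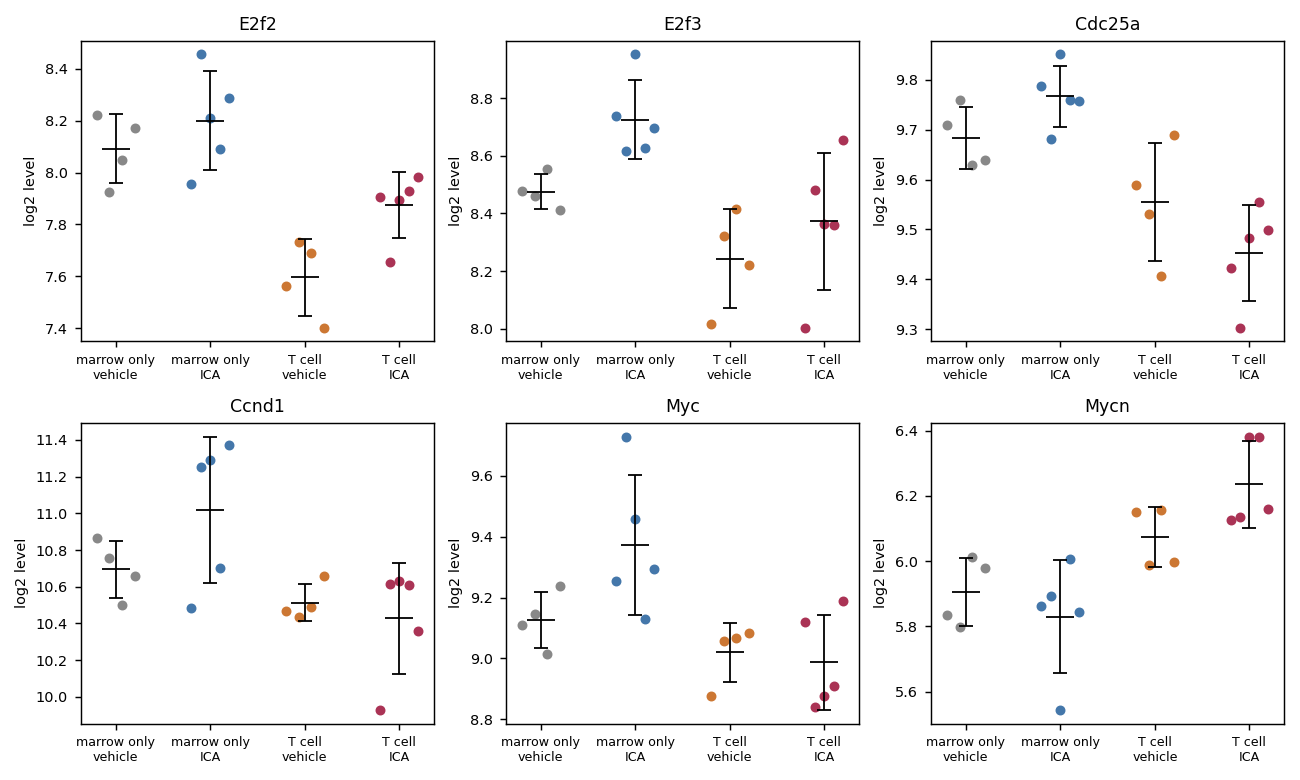
Log2 level (y axis) of 6 drivers of G1 in each mouse of the 4 groups (x axis), with group mean and SD as bars. E2f2 is lower in all vehicle T cell mice than in all vehicle marrow-only mice, Cdc25a and Mycn do not overlap between the 2 ICA groups, and Ccnd1 and Myc spread widely in the ICA marrow-only mice.

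Of 21 measured brakes on the cell cycle, which hold cells in G1 or arrest them, 1 fell and 1 rose over both gavages, 2 of 21 against 7.21% of all genes. E2f4, a repressing E2F, fell by 0.28 ± 0.07 (adjusted p = 0.0176), and Rbl2, the p130 pocket protein that binds it in resting cells, rose by 0.20 ± 0.05 (adjusted p = 0.0205). None of the 21 passed in limma in a single graft comparison, with 2 and 5 below an unadjusted p of 0.05 under vehicle and ICA. Of 22180 genes, 1682 were higher and 1203 lower at that p under vehicle, and 1647 higher and 2038 lower under ICA. The adjusted p of E2f4 and Rbl2 over the other settings ran from 0.00529 to 0.0416 and from 0.00437 to 0.0557.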

How the data were processed

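Ileal RNA of 18 mice was hybridised to Affymetrix whole-transcript mouse gene arrays, 1 per mouse. The deposited table holds the authors' processed values, read here as log2 from their range, since the log base is not given in the sources used here. Partek, GenomeStudio and RMA are named in the submitters' processing notes. The near-equal array medians are those of a table normalised between arrays. Of 41345 probe sets, 23521 had 1 gene symbol, 1814 several and 16010 no listed symbol. Each of the 22180 genes was read from its brightest probe set with 1 symbol, without a filter. One linear model with 4 group means was fitted in limma 3.58.1 (R 4.3.3) with a variance trend (14 residual degrees of freedom, 6.1 from the prior), and two-sided p-values were adjusted by Benjamini-Hochberg over all genes. Tested on simulated data for the graft comparison under vehicle over 22180 genes, it recovered 93% of log2 differences of 1 and 51% of those of 0.5. The number of arrays limits the precision.

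The members, the other gene lists and the marker lists were chosen with earlier results of these data known, and nothing is supported by the choice itself. Values in every mouse are given for Mki67, Top2a, Cdk1, Plk1, Mcm2, Pcna, Rrm2, Ccne1 and E2f1, for the 3 S phase and 3 mitotic members with the smallest p in the graft comparison under vehicle and in the ICA comparison in T cell mice, and for called members. In the other lists called genes were named. Alternatives changed the mice, probe sets, scaling, filter, prior variance, array weights, the replicate block and the test. The labels call the mice biological replicates.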

Additional observations from a re-analysis of the deposited data

Results flagged for a closer look

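In 10 of 100 sets of 4 or 5 values (22 named members and 3 list summaries in each of 4 groups), 1 mouse lay far from the others of its group. Chance alone gives about 1 such set in 20. ICA T cell mouse 1 was the far one in 6 sets, always low: Birc5 at 7.21 (others 7.71 to 7.83), Bub1b at 7.95 (others 8.34 to 8.47), Mcm2 at 8.29 (others 8.81 to 8.95), Mcm3 at 7.50 (others 8.07 to 8.19), Plk1 at 9.49 (others 9.83 to 9.93), and the mean of the 22 mitotic members at 8.48 (others 8.93 to 9.04). ICA marrow-only mouse 3 was high in Cdc45, at 7.94 (others 7.41 to 7.55). Vehicle marrow-only mouse 2 was high in Aurka, at 8.91 (others 8.64 to 8.67), and low in Pcna, at 8.91 (others 8.95 to 8.96). Vehicle T cell mouse 2 was low in Cdk1, at 9.25 (others 9.44 to 9.47). The sets of 1 mouse are not independent, because the members moved together.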

How the results depend on the processing

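No called difference changed sign in any setting run. The medians of both lists moved by less than the spread between mice in all 4 single comparisons. That spread, a pooled SD of 0.15 (S phase) and 0.18 (mitotic), is larger than most of the medians, so it cannot show that they were stable. As each mouse was left out, the S phase median ran through 0 between grafts under vehicle (-0.02 to 0.05). It also did so for ICA in T cell mice (-0.01 to 0.14). The mitotic medians kept their side of 0 in both (-0.13 to -0.06 and 0.04 to 0.19). The count of members called under ICA between grafts, 1 as reported, was 0 with only the 2 groups compared, without the variance trend and in the ordinary 2-sample test (3, 4 and 2 members at an unadjusted p under 0.05), was 2 with vehicle marrow-only mouse 3, ICA marrow-only mouse 1 and ICA T cell mouse 1 left out together, and ran from 0 to 3 as each mouse was left out. The count of 1 over both gavages was 2 (Birc5 and Nusap1) with quantile normalization, centring on array medians, a filter at a mean log2 of 6, array weights and the same 3 arrays left out, and ran from 0 to 2 as each mouse was left out. With mouse number as a replicate block it was also 2, and under ICA it remained 1. The block changed no other count of members. Over all genes, deviations of same-numbered mice correlated at only -0.14 to 0.17, which does not settle whether the numbers pair the mice for these members. Mouse 1 had the lowest mitotic mean of each group, 8.81 (vehicle marrow-only), 8.78 (ICA marrow-only), 8.72 (vehicle T cell) and 8.48 (ICA T cell). Whether the numbers mark a pairing was not tested. No other count of members differed from 0 in any setting run. Log2 differences under 0.5 would often be missed with 4 or 5 mice a group.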
